A study of Bos taurus with 15 samples.

Results

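A set of 9 interferon-stimulated genes was followed across the digestive tract of newborn (NB) and adult (AD) cattle, namely *ISG15*, *MX1*, *MX2*, *IFI6*, *IFI27*, *IFI44*, *RSAD2*, *OAS2* and *IRF7*. They were taken by symbol, and all 9 were found among the 27270 genes of the count matrices. Levels are given as CPM: the UMIs (unique molecular identifiers, 1 per captured RNA molecule) of a gene in all barcodes of a cell class of a library, per 1e+06 UMIs of those barcodes. A class was set by marker genes: *EPCAM* or *KRT14* for epithelial cells, *CD3E* for T cells, *C1QA* for macrophages, *COL1A2* for fibroblasts and *PECAM1* for endothelial cells.

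Interferons are secreted proteins that cells release on sensing viral or microbial nucleic acids. Type I and type III interferons act through separate receptors that switch on a shared set of antiviral genes. Type II interferon (IFN-γ), made largely by T cells and natural killer cells, acts through a receptor of its own and induces a partly different set, which includes the chemokines CXCL9 and CXCL10. In the intestine, epithelial cells respond chiefly to type III interferon, while leukocytes and stromal cells respond to type I interferon. Among the genes followed here, *ISG15* encodes a ubiquitin-like modifier, *MX1* and *MX2* dynamin-like GTPases, *OAS2* a synthase of 2'-5'-oligoadenylates, *RSAD2* the radical-SAM enzyme viperin, *IFI6* and *IFI27* small hydrophobic membrane proteins, *IFI44* a cytoplasmic protein, and *IRF7* the transcription factor that amplifies type I interferon production.

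The data were 15 droplet single-cell RNA-seq libraries (10x Genomics), 1 for each tissue and stage, so no group had a replicate. The 11 NB libraries came from newborn Holstein calves and covered 3 stomach chambers (reticulum, omasum and abomasum), the small intestine (ileum, jejunum and duodenum), the large intestine (rectum, colon and cecum), the salivary gland and the liver, while the 4 AD libraries held duodenum, jejunum, cecum and colon of a single lactating Holstein cow. Several calves were used, but which calf gave which library, and the ages in days, are not given in the sources used here. Dissociation also differed. NB stomach chambers and intestine were treated with EDTA and trypsin first. A mix of collagenases, hyaluronidase, dispase and DNase I followed for the stomach chambers, and the enzymes of a propria dissociation kit for the intestine. NB liver was digested with collagenase I, papain and DNase I, and NB salivary gland with collagenase II, dispase and DNase I. AD duodenum and cecum were prepared with a lamina propria kit, and AD jejunum and colon with a multi-tissue kit. No trypsin step is described for the AD tissues. Stage, animal and dissociation therefore cannot be told apart, and no p-value is given. All 95% intervals are exact and cover counting error only.

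After filtering and removal of predicted doublets, 119798 of 172405 barcodes were kept, and the total per library ran from 17707625 to 129458578 UMIs. Of the kept barcodes, 3556 (2.97%) had a sequence that also occurred in another library. Classes of at least 50 barcodes were found in 58 combinations of class and library, 46 NB and 12 AD. Check markers that did not enter the class rule were highest in their own class in all 13 epithelial, 12 T cell, 13 macrophage, 11 fibroblast and 9 endothelial groups. The weakest separation was in NB rectum, where the T cell check markers summed to 871 CPM in T cells, 1.63 times the 534 CPM in macrophages. AD colon macrophages held 553 CPM of them, against 2627 in AD colon T cells. The epithelial class joined the keratinised lining of reticulum and omasum with glandular epithelium of the other tissues. No AD library held 50 endothelial barcodes.

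On their mean level, the 9 genes were highest in the same 3 newborn libraries in most classes: rectum, cecum and abomasum. Each was 1 library, and whether the 3 came from the same calf is not given in the sources used here. Dissociation also differed between NB tissues, so tissue, animal and dissociation cannot be told apart in this order. On the mean of log2(CPM + 5) over the 9 genes, NB rectum ranked 1 or 2 in each of the 5 classes, NB cecum 1 to 3 and NB abomasum 1 to 5. These means take in every gene, including some, such as *ISG15* in rectum epithelial cells, T cells and macrophages, whose level did not exceed that of the same library's barcodes with fewer than 500 genes. In endothelial cells this mean was 7.39 in rectum, 7.11 in abomasum, 6.82 in cecum and 6.47 in ileum, and lay between 4.90 and 5.62 in colon, reticulum, jejunum, duodenum and omasum. In fibroblasts it was 6.34 in rectum, 6.23 in cecum and 5.84 in abomasum, followed by 5.78 in salivary gland, 5.76 in ileum, 5.72 in AD colon and 3.11 to 5.09 in the remaining NB libraries. In macrophages it was 6.82 in abomasum, 6.55 in rectum and 6.29 in cecum, and 4.33 in liver, the lowest of 13. T cells had the narrowest span, from 4.06 in NB colon to 5.70 in NB cecum. In epithelial cells NB rectum (5.71), NB cecum (5.35) and AD jejunum (5.28) led, and NB omasum was lowest (2.75). NB colon, which lies between cecum and rectum, ranked lower: 10 of 13 in epithelial cells, 12 of 12 in T cells, 9 of 13 in macrophages, 8 of 11 in fibroblasts and 5 of 9 in endothelial cells. Single genes did not all follow the order of this mean: *ISG15* was highest in NB ileum in T cells and fibroblasts. With the class set by *COL1A2* alone, NB ileum stood in place of NB abomasum among the 3 highest fibroblast libraries.

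**Figure D1:**
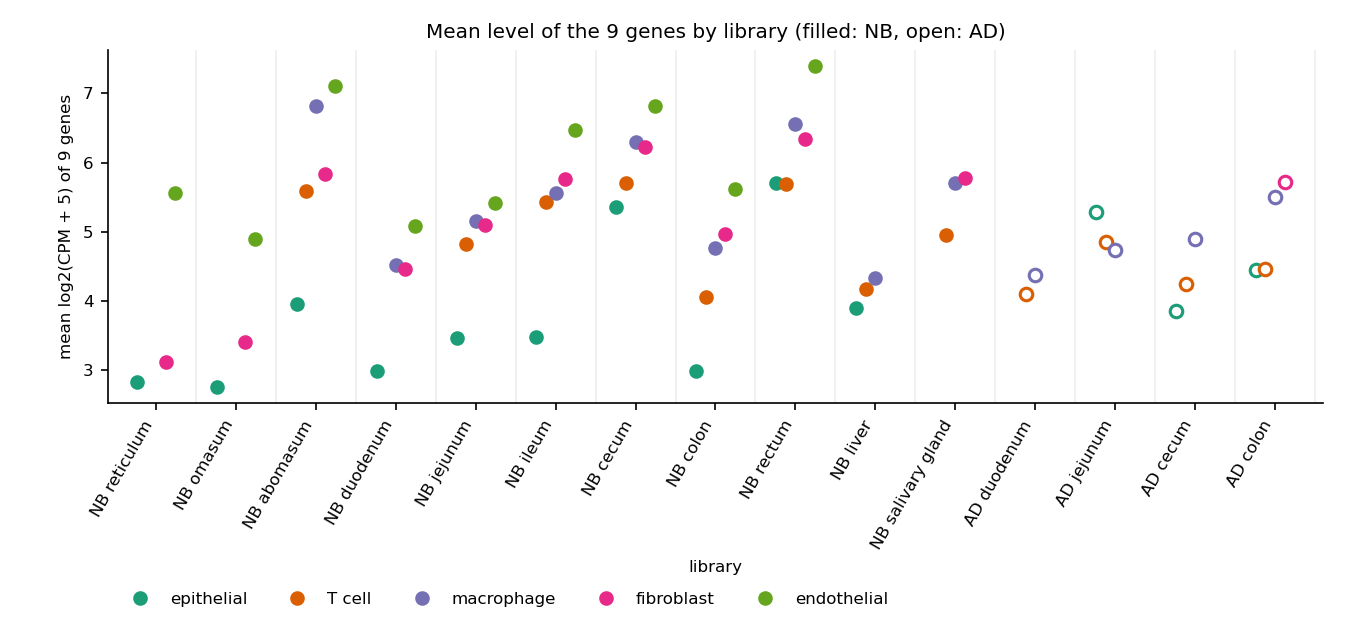
Mean of log2(CPM + 5) over the 9 genes (vertical axis) in each library, by cell class; NB and AD libraries are marked apart and each point is 1 library. NB rectum and NB cecum lie at or near the top of all 5 classes, while NB omasum and NB duodenum lie low.

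Signs of handling were set beside this order. The 9 genes of a dissociation response list (*FOS*, *JUN* and others) summed to 5805, 5621 and 5550 CPM in fibroblasts of NB rectum, cecum and abomasum, inside the 3556 to 14315 CPM of the other 8 fibroblast groups. In endothelial cells of the same libraries they summed to 11541, 7299 and 7488 CPM, inside the 6814 to 17970 CPM of the other 6. In macrophages they summed to 17858, 26707 and 8176 CPM, and NB cecum was the highest of the 13 groups. The part of the dissociation response in the order of the libraries was not tested.

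**Figure D2:**
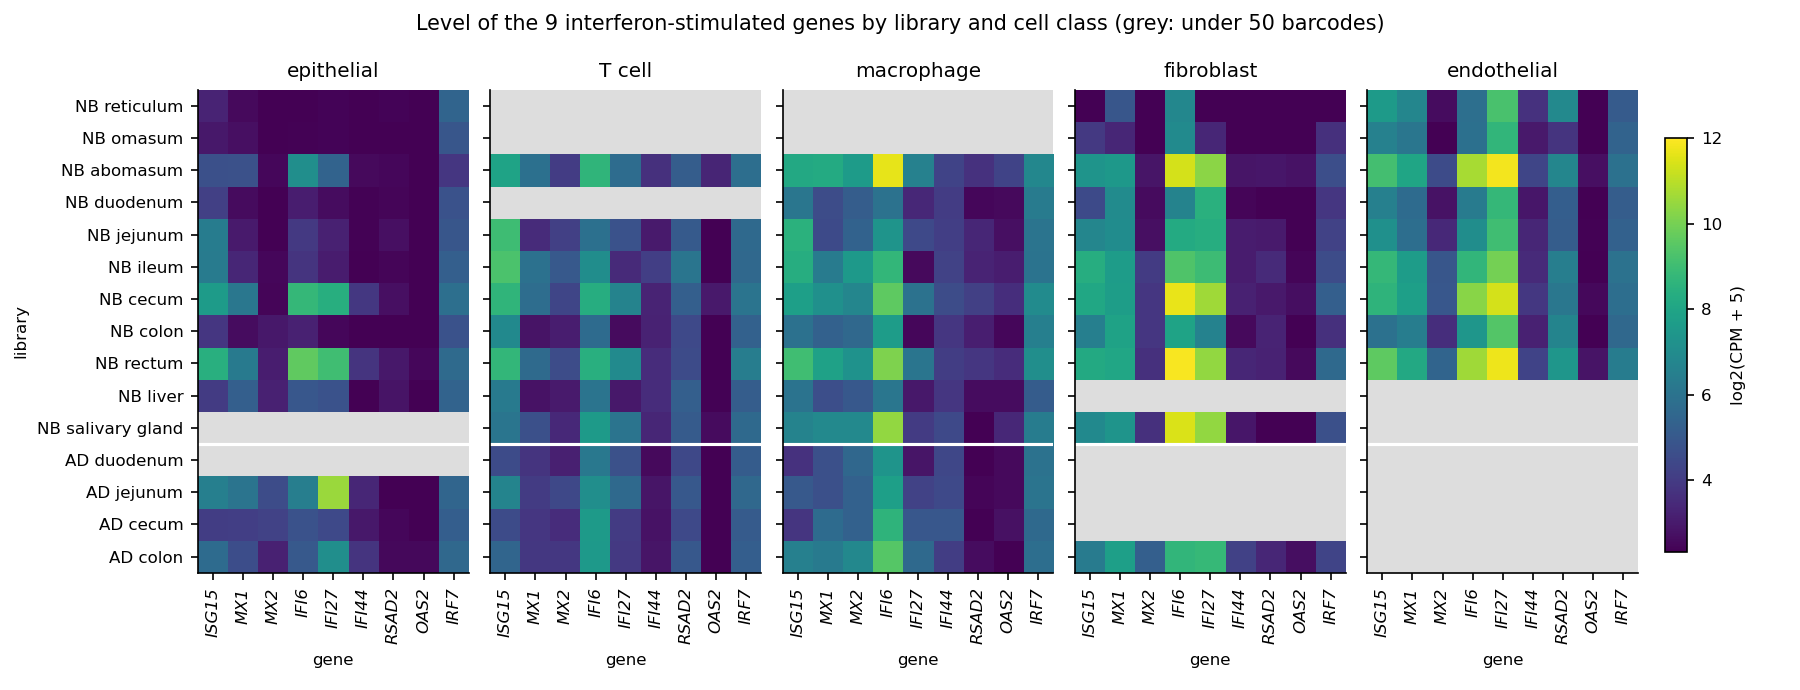
Level of each of the 9 genes (CPM, colour on a log scale) in each library, with libraries grouped by cell class. *IFI27* is highest in endothelial groups, *MX2* in macrophage groups and *RSAD2* in endothelial and T cell groups.

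*ISG15*, the modifier that is conjugated to newly made proteins and is also secreted, reached its highest levels in T cells and endothelial cells. Among the 14 libraries with at least 3 classes, it was highest in T cells in 7 of the 11 that held them and in endothelial cells in 5 of 9. In NB T cells it was 608 CPM in ileum, 508 in jejunum, 415 in rectum, 397 in cecum, 237 in abomasum, 117 in colon, 75.2 in liver and 63.2 in salivary gland. AD T cells held 97.2 CPM in jejunum, 39.1 in colon, 18.3 in cecum and 18.0 in duodenum. The 6 highest of the 12 T cell groups were thus all NB, and NB liver and salivary gland fell among the AD values. In endothelial cells *ISG15* was 773 CPM in rectum (interval 745–802), 547 in abomasum, 425 in ileum, 388 in cecum, 190 in reticulum, 139 in jejunum, 90.03 in omasum, 86.8 in duodenum and 56.2 in colon. Neighbours in that order overlapped within their intervals in 2 of 8 pairs. In macrophages the 9 NB libraries ranged from 55.4 CPM in colon to 518 in rectum, with a median of 217, against 8.03, 9.15, 27.8 and 86.7 in AD duodenum, cecum, jejunum and colon.

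Epithelial *ISG15* was 337 CPM in NB rectum and 193 in NB cecum, and 2.71 to 77.7 in the other 8 NB libraries. Barcodes with fewer than 500 genes, which may hold small or damaged cells and free RNA, gave a reference here called the low-gene level of each library. Because real cells can be among them, a class at or below this level is not shown to lack the gene, only not to stand above it. *ISG15* was at 576 CPM in these barcodes of NB rectum and 267 in those of NB cecum, and epithelial *ISG15* exceeded them in 2 of 13 libraries, NB reticulum and NB duodenum. The other epithelial *ISG15* levels did not stand above it. Endothelial levels exceeded it in 8 of 9 libraries, macrophage levels in 8 of 13 and T cell levels in 7 of 12. NB rectum T cells and macrophages (415 and 518 CPM) were below it.

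*MX1* and *MX2*, neighbouring genes whose GTPases trap viral components, differed in the class that held them. *MX1* was highest in fibroblasts in 6 of 11 libraries and in endothelial cells in 4 of 9. In fibroblasts *MX1* was 261 CPM in NB rectum, 234 in NB colon, 215 in AD colon, 205 in NB cecum, 198 in NB ileum, 173 in NB abomasum, 157 in NB salivary gland, 125 in NB jejunum and 123 in NB duodenum. It dropped to 25.2 CPM (5 UMIs) in NB reticulum and 5.19 (2 UMIs) in NB omasum, and neighbours in the order overlapped in 9 of 10 pairs. In macrophages *MX1* was 300 CPM in abomasum, 225 in rectum, 139 in cecum and 111 in salivary gland, and 17.5 to 75.7 in the remaining NB libraries, while AD libraries gave 20.6 to 72.4.

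*MX2* was highest in macrophages in all 12 libraries that held them beside other classes. Its macrophage level was 196 CPM in NB abomasum, 177 in ileum, 148 in rectum, 111 in salivary gland, 103 in cecum, 43.4 in colon, 35.9 in jejunum, 31.3 in duodenum and 26.9 in liver. AD macrophages held 110 CPM in colon, 42.1 in duodenum, 35.5 in jejunum and 34.8 in cecum, inside the NB range. NB epithelial cells held almost none (0 to 4.36 CPM), whereas AD epithelial cells held 19.0 CPM in jejunum and 13.9 in cecum. AD colon epithelium, at 4.30 CPM (6 UMIs), lay inside the NB range and below its low-gene level (8.50 CPM). Both genes exceeded the barcodes with fewer than 500 genes in 13 of 13 macrophage groups. Because they lie next to each other and share sequence, reads of one could have been counted to the other.

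*IFI6*, an inhibitor of viral replication at internal membranes, set the same tissues apart in several classes. It was highest in fibroblasts in 9 of 11 libraries and in macrophages in 5 of 12. In fibroblasts it was 3845 CPM in NB rectum (3807–3883), 3287 in cecum, 2823 in salivary gland, 2685 in abomasum, 646 in ileum, 299 in jejunum, 242 in colon, 119 in omasum, 106 in reticulum and 94.9 in duodenum. AD colon fibroblasts held 410 CPM (365–458). The 4 highest libraries thus stood clear of the other 7, and 3 of 10 neighbouring pairs overlapped. Macrophages gave 3230 CPM in NB abomasum, 1358 in salivary gland, 1125 in rectum and 776 in cecum, and 58.1 to 414 in the other NB libraries, with 156 to 693 in AD. Endothelial *IFI6* was 1707, 1554 and 1243 CPM in abomasum, rectum and cecum, 404 in ileum and 52.7 to 166 in the other 5 libraries. Epithelial *IFI6* ran from 0.125 CPM in NB reticulum (8 UMIs) to 799 in NB rectum, with 427 in cecum and 134 in abomasum. It exceeded the low-gene level in NB rectum (313 CPM), NB cecum (272 CPM) and NB duodenum, and in none of the other 10 epithelial groups, whereas fibroblast and endothelial *IFI6* exceeded it in every library.

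*IFI27*, another gene of the same family, was highest in endothelial cells in all 9 libraries that held them, none of them AD. It stood there at 3604 CPM in abomasum, 3493 in rectum, 2632 in cecum, 1016 in ileum, 676 in colon, 586 in reticulum, 517 in jejunum, 427 in duodenum and 410 in omasum. The lowest endothelial library thus still held 345 CPM or more at the lower bound of its interval. Fibroblasts split into 3 sets: 1550, 1388, 1375 and 1259 CPM in NB cecum, salivary gland, rectum and abomasum, 92.3 to 490 in NB ileum, duodenum, jejunum and colon and in AD colon (443), and 5.19 CPM (2 UMIs) and 0 UMIs in omasum and reticulum. With 3 counts as the floor, 0 UMIs of 198043 allows up to 15.1 CPM in reticulum fibroblasts, and the upper limit of the exact interval was 18.6 CPM.

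In T cells and macrophages *IFI27* mostly did not stand above the low-gene level: it exceeded it in 3 of 12 and 3 of 13 libraries. In NB rectum these barcodes held 173 CPM against 119 in T cells and 62.6 in macrophages. The highest epithelial level was in AD jejunum, at 1479 CPM (1382–1581) against 66.2 in its barcodes with fewer than 500 genes, followed by 514 in NB rectum, 328 in NB cecum and 132 in AD colon. The other 9 epithelial groups held between 0.339 and 36.8 CPM.

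*RSAD2*, whose product makes a chain-terminating nucleotide from CTP, was highest in endothelial cells in 9 of 9 libraries and in T cells in the other 5 of the 14. Endothelial levels were 166 CPM in rectum, 112 in reticulum, 105 in abomasum, 96.9 in colon, 84.2 in ileum, 66.6 in cecum, 32.4 in duodenum, 31.3 in jejunum and 8.71 in omasum (3 UMIs). Here reticulum ranked high although it was lowest for endothelial *IFI6*, and 5 of 8 neighbouring pairs overlapped. In T cells *RSAD2* ranged from 17.2 CPM in NB colon to 62.1 in NB ileum with a median of 30.2 over 8 NB libraries, and was 16.4, 16.7, 26.3 and 27.0 in AD duodenum, cecum, colon and jejunum. T cell levels exceeded the barcodes with fewer than 500 genes in 12 of 12 libraries. *OAS2*, whose product activates RNase L, was barely captured: its highest level in any group was 14.3 CPM (7 UMIs) in NB abomasum macrophages, and macrophages led in 11 of 12 libraries.

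*IFI44* was low in all classes. It was highest in macrophages in 9 of 12 libraries and in endothelial cells in 4 of 9, where it ranged from 2.41 CPM in NB duodenum to 15.2 in NB abomasum. In macrophages it lay between 9.43 CPM in NB colon and 18.8 in NB cecum over 9 NB libraries and between 11.9 and 25.6 in AD, and all 12 neighbouring pairs overlapped. *IRF7* varied less over the libraries than *IFI6* did. In macrophages *IRF7* was 132 CPM in NB rectum, 122 in cecum and 108 in abomasum, had an NB median of 77.9, and was lowest in liver at 30.5. T cells spanned 30.9 to 80.6 CPM in NB and 29.3 to 43.6 in AD. Epithelial *IRF7* was 38.3 CPM in NB reticulum and 25.2 in NB omasum, the libraries with the lowest epithelial *IFI6*.

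Detection in the same barcodes was compared after each barcode was thinned to 1000 UMIs, since depth differed between libraries. UMIs of at least 3 of the 9 genes were then found in 45.9% of NB rectum endothelial barcodes (41.8–50.1, 575 barcodes), 37.1% in abomasum, 26.1% in cecum and 13.7% in ileum. The other 5 endothelial groups held 1.45 to 3.57%. Fibroblasts followed with 25.4% in rectum, 20.4% in cecum, 15.6% in abomasum, 11.9% in salivary gland and 8.65% in ileum, and 3.74% in AD colon. Macrophage shares were 22.7% in abomasum, 12.4% in rectum and 6.24% in cecum. T cells ranged from 0.0609% in NB liver and 0.203% in NB colon to 4.27% in NB cecum and 4.47% in NB rectum, and the 4 AD libraries, at 0.159 to 0.738%, overlapped the lower NB values. Epithelial shares were 7.38% in NB rectum, 5.71% in NB cecum and 5.80% in AD jejunum (4 of 69 barcodes), and at most 0.722% elsewhere. In NB rectum epithelial *ISG15* was below the low-gene level, and the part of free RNA in these shares was not tested. Without thinning the shares were 86.0% in rectum endothelial cells, 74.3% in rectum fibroblasts and 58.1% in rectum epithelial cells. In NB duodenum macrophages 0 of 448 barcodes had 3 of the genes after thinning and 10.3% before it, so a thinned share of 0 does not show that such cells were lacking.

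**Figure D3:**
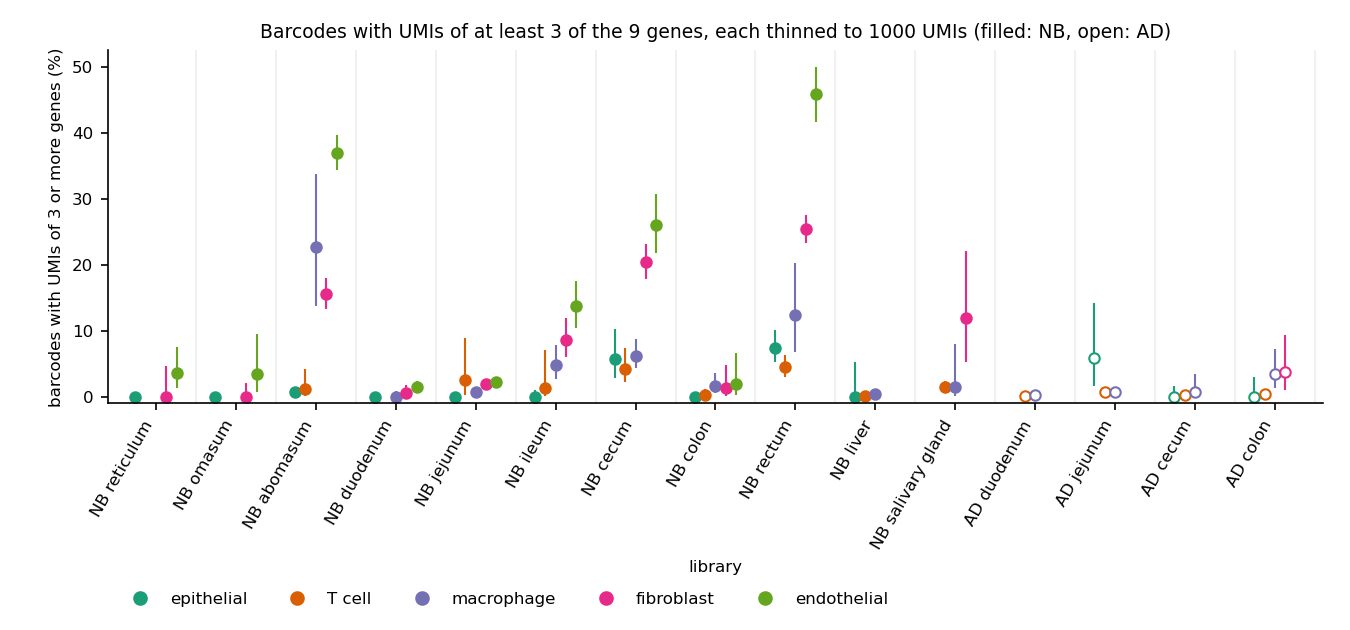
Percent of barcodes with UMIs of at least 3 of the 9 genes after thinning to 1000 UMIs (vertical axis) in each library, by cell class, with exact binomial 95% intervals. NB rectum endothelial cells reach 45.9%, and the NB rectum, cecum and abomasum points lead in endothelial cells and fibroblasts.

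The stages could be compared in the 4 intestinal tissues with an AD library, in the 11 combinations of class and tissue with at least 50 barcodes at both stages. A gene entered where its mean of both stages was at least 5 CPM, and was counted where log2 of the ratio of (CPM + 5) was at least 1 in size, a 2-fold difference. Of 99 pairs of a gene and a comparison 75 entered and 24 did not, and *OAS2* entered in none. AD was at least 2-fold higher in 20 of the 75 pairs, against 2.16 to 19.3% of all genes in the 11 comparisons. NB was higher in 17, against 4.13 to 11.2%. The direction differed between the cecum and colon libraries, and the difference between tissues was not tested. In the cecum 7 epithelial, 7 T cell and 8 macrophage pairs entered. Of these, 13 were higher in NB, against 5 to 11.2% of all genes in its 3 classes. Only 1 was higher in AD, against 5.17 to 8.14%. In the colon 5 epithelial, 7 T cell, 7 macrophage and 8 fibroblast pairs entered. Of these, 13 were higher in AD, against 10.1 to 17% of all genes in its 4 classes. Only 1 was higher in NB, against 4.13 to 7.98%.

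**Figure D4:**
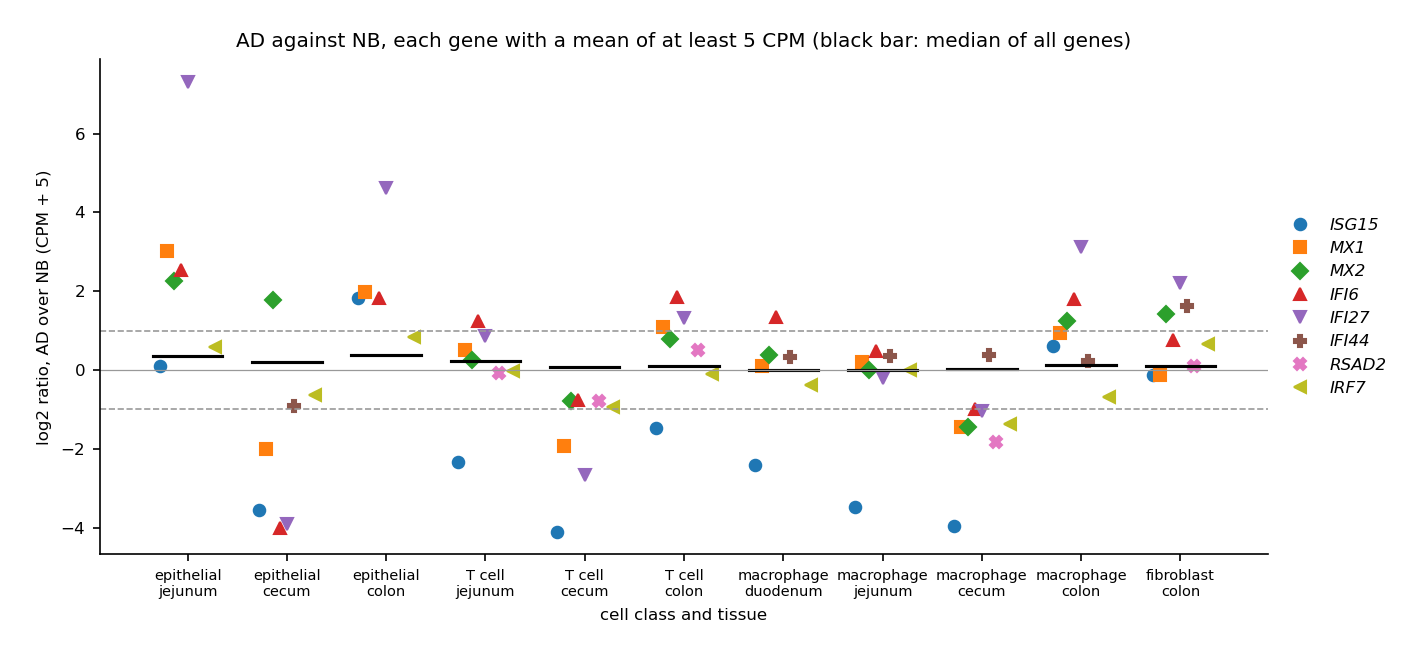
Log2 ratio of AD over NB (CPM + 5) of each gene that entered (vertical axis) in each class and tissue; black bars mark the median of all genes in that comparison and dashed lines a 2-fold difference. Points lie mostly above 0 in colon and jejunum epithelium and mostly below 0 in the cecum.

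In jejunum epithelium (565 NB and 70 AD barcodes) 4 of the 6 genes that entered were higher in AD, where 19.3% of all genes were, and 0 were higher in NB (6.7%). *IFI27* was 4.33 CPM in NB and 1479 in AD, a 342-fold difference (236–514). *MX1* was 3.13 and 60.4 CPM (19.3-fold) and *IFI6* 10.1 and 82.8 CPM (8.17-fold). *MX2* had 0 UMIs in NB and 11 in AD, which made AD at least 42.4-fold higher with 3 counts as the NB floor, while the exact interval, which also takes in the error of the 11 UMIs, put the ratio above 29.0. *ISG15* was 77.7 and 84.6 CPM, a ratio of 1.09 (0.795–1.46), and *IRF7* 25.1 and 39.7 CPM, a ratio of 1.58 (0.977–2.46), so both intervals included 1. AD *IFI27* (66.2 CPM), *MX1* (10.6 CPM) and *MX2* (12.6 CPM) of the barcodes with fewer than 500 genes lay below these epithelial levels, but *IFI6* (237 CPM) and *ISG15* (98.6 CPM) lay above them, so the last 2 did not stand above the low-gene level. The median of all genes was itself shifted by 0.35 on the log2 scale towards AD, and the median of the 6 genes was 2.40.

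In colon epithelium (695 and 130 barcodes) 4 of 5 genes were higher in AD against 17% of all genes, and 0 in NB against 4.13%. *IFI27* was 0.603 CPM (5 UMIs) in NB and 132 in AD, a ratio of 219 (92.1–682). *MX1* was 1.21 and 19.4 CPM, *IFI6* 4.34 and 27.9 CPM and *ISG15* 9.52 and 46.6 CPM. The last 2 again did not exceed the low-gene level of AD colon (51.5 and 104 CPM), and the log2 ratio of *ISG15* was 0.82, short of the limit, when the class was set by the anchor gene alone. The median of all genes was shifted by 0.37 and that of the 5 genes was 1.83. Under a mitochondrial limit of 10% the AD jejunum and colon classes held 32 and 48 epithelial barcodes, too few for either comparison.

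Cecum epithelium (176 and 231 barcodes) went the other way: 4 of 7 genes were higher in NB, where 5% of all genes were, and 1 in AD (7.9%). *IFI6* was 427 CPM in NB and 21.9 in AD, 19.5-fold higher in NB (15.1–25.6). *IFI27* was 328 and 17.1 CPM (19.2-fold), *ISG15* 193 and 11.8 CPM (16.3-fold) and *MX1* 65.7 and 12.5 CPM (5.25-fold). *MX2* alone was higher in AD, with 1 UMI in NB and 40 in AD, a ratio of 25.6 (4.34–1037), and its log2 ratio was 0.09 with the anchor gene alone. The dissociation genes summed to 5895 CPM in NB and 2603 in AD cecum epithelium, 6718 and 2506 in jejunum and 4673 and 8009 in colon, and their part in these differences was not tested. In NB cecum the epithelial levels exceeded the low-gene level for *IFI6*, *IFI27* and *MX1* (272, 191 and 49.5 CPM) and not for *ISG15*. The median of the 7 genes was −2.01 and that of all genes 0.19.

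In T cells *ISG15* was higher in NB in all 3 tissues that could be compared. It was 508 CPM in NB and 97.2 in AD jejunum (5.23-fold, interval up to 6.17), 397 and 18.3 in cecum (21.7-fold, 19.3–24.3) and 117 and 39.1 in colon (2.99-fold, 2.64–3.39). The low-gene level differed between the stages too. In NB it was 145 CPM (jejunum), 267 CPM (cecum) and 41.2 CPM (colon), and in AD 98.6, 38.0 and 104 CPM, with the AD T cells below it in all 3 tissues. The dissociation genes of T cells were also higher in NB, at 20360 CPM against 3308 in AD (jejunum), 17698 against 6889 (cecum) and 15129 against 11740 (colon), and their part in the *ISG15* difference was not tested. *IFI6* did not share this direction: it was 54.0 and 134 CPM in jejunum and 47.7 and 186 in colon, 2.49-fold and 3.89-fold higher in AD, and 322 and 186 in cecum, 1.73-fold higher in NB. The jejunum difference was short of the limit with the anchor gene alone (log2 0.62), and both jejunum levels were below the low-gene levels of their libraries (62.4 and 237 CPM), while both colon levels were above theirs (29.4 and 51.5 CPM). Of 7 genes that entered, the jejunum had 1 higher in AD (15.4% of all genes) and 1 in NB (7.13%), the cecum 0 in AD (8.14%) and 3 in NB (11.2%), and the colon 3 in AD (10.1%) and 1 in NB (7.98%). *IFI27* and *MX1* were higher in NB cecum (8.74-fold and 5.33-fold) and in AD colon, where NB held 3 and 6 UMIs and both fell short of the limit with the anchor gene alone (log2 0.75 and 0.85). The *IFI27* level of T cells in NB cecum was below the low-gene level (96.0 against 191 CPM), and so was their *MX1* level in AD colon (9.99 against 15.9 CPM). Over the 3 tissues, the 4 T cell pairs higher in AD and 5 higher in NB became 1 and 8 with the anchor gene alone, and 8 and 8 after thinning. The NB jejunum group held 80 barcodes. The medians of all genes were 0.23, 0.07 and 0.10 in jejunum, cecum and colon.

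Macrophages repeated the *ISG15* difference in 3 of 4 tissues. *ISG15* was 63.9 CPM in NB and 8.03 in AD duodenum (7.96-fold, 5.24–12.6), 359 and 27.8 in jejunum (12.9-fold, 11.7–14.3) and 217 and 9.15 in cecum (23.7-fold, 10.1–73.1). In colon it was 55.4 and 86.7 CPM, 1.57-fold higher in AD (1.13–2.16), and this direction turned when barcodes were thinned to equal depth. The AD colon value was below its low-gene level (104 CPM) and the NB value above (41.2 CPM). NB cecum macrophages were below the low-gene level of their library (267 CPM), while NB duodenum and jejunum macrophages were above it (8.14 and 145 CPM). The dissociation genes were higher in NB in all 4 tissues, including colon, where *ISG15* was higher in AD before thinning. In NB macrophages they summed to 14278 (duodenum), 18611 (jejunum), 26707 (cecum) and 14493 CPM (colon), and in AD to 1603, 1721, 2660 and 4227 CPM. Their part in the *ISG15* difference was not tested. In duodenum 1 of 6 genes was higher in AD (2.16% of all genes) and 1 in NB (5.54%), and in jejunum 0 of 7 in AD (2.95%) and 1 in NB (5.78%). The AD gene in duodenum was *IFI6*, at 58.1 CPM in NB and 156 in AD (2.69-fold). None of the other 6 jejunum genes reached 2-fold. *IFI6* was 155 and 218 CPM, 1.41-fold higher in AD (1.34–1.49), although the AD level did not exceed the low-gene level of its library (237 CPM). *IFI44* was 12.2 and 17.0 CPM, 1.40-fold higher (1.15–1.71). *MX2*, at 35.9 and 35.5 CPM, and *IRF7*, at 61.5 in both, had ratios whose intervals included 1.

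Cecum macrophages (518 NB and 160 AD barcodes) had 6 of 8 genes higher in NB, against 8.53% of all genes, and 0 in AD (5.17%). Besides *ISG15* these were *MX1* (139 and 47.6 CPM), *MX2* (103 and 34.8 CPM), *IRF7* (122 and 43.9 CPM), *IFI27* (58.4 and 25.6 CPM) and *RSAD2*. *RSAD2* had 63 UMIs in NB and 0 in AD, at least 2.34-fold higher in NB with 3 counts as the AD floor, while the exact interval put the ratio above 1.85. Its log2 ratio was −0.67 with the anchor gene alone, and that of *MX1* −0.88 after thinning, both short of the limit. *IFI27* fell short under 4 alternatives (−0.95 to −0.99). The NB levels of *IFI27* and *RSAD2* were below the low-gene level (191 and 15.3 CPM), and those of *MX1*, *MX2* and *IRF7* above it. *IFI6*, at 776 and 388 CPM, had a ratio just under the limit (1.74–2.31). Colon macrophages (364 and 181 barcodes) had 3 of 7 higher in AD, against 12% of all genes, and 0 in NB (7.51%): *IFI6* (197 and 693 CPM), *MX2* (43.4 and 110 CPM) and *IFI27*, with 1 UMI in NB and 37 in AD. The *MX2* difference was short of the limit with the anchor gene alone (log2 0.87) and after thinning (0.85). Median UMIs per macrophage were 10102 in NB and 2358 in AD cecum, and 2369 and 3171 in colon.

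Fibroblasts could be compared in the colon alone (149 and 107 barcodes), where 3 of 8 genes were higher in AD (10.9% of all genes) and 0 in NB (6.68%). *IFI27* was 92.3 and 443 CPM (4.80-fold, 3.82–6.08) and *MX2* 9.41 and 33.5 CPM (3.56-fold). *IFI44* had 1 UMI in NB and 10 in AD (ratio 14.2, 2.02–617), and a log2 ratio of 0.00 after thinning. *MX1*, at 234 and 215 CPM, and *ISG15*, at 84.7 and 76.3 CPM, had ratios whose intervals included 1. The dissociation genes summed to 4122 CPM in NB and 7557 in AD colon fibroblasts, and their part in these differences was not tested.

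**Figure D5:**
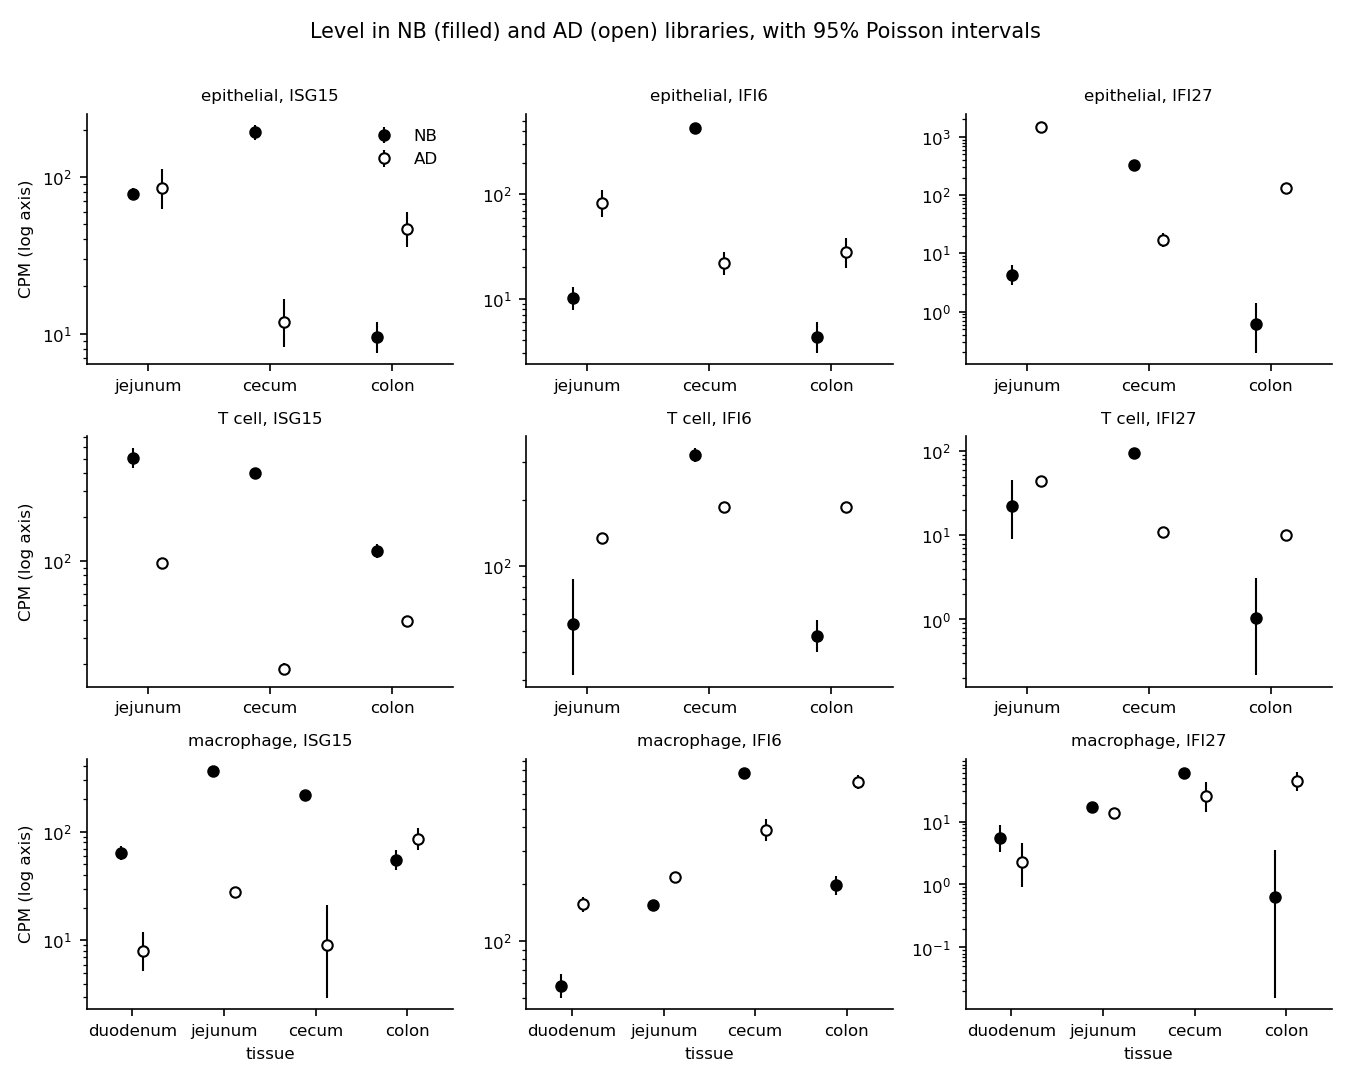
CPM (log axis) of *ISG15*, *IFI6* and *IFI27* in epithelial cells, T cells and macrophages of the tissues with both stages; filled points are NB, open points AD, and bars exact Poisson 95% intervals. *ISG15* lies lower in AD in every T cell pair, while *IFI6* and *IFI27* change direction between cecum and colon.

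The *IFI27* level of AD jejunum epithelium differed with the presence of tuft cell genes. Tuft cells are chemosensory epithelial cells, and a UMI of at least 1 of 7 tuft genes (such as *TRPM5* and *POU2F3*), a split chosen after the data were seen, was found in 41 of the 70 AD jejunum barcodes (58.6%). The same share was 22.3% in AD colon and 20.4% in AD cecum, and 0.568 to 6.10% in the NB libraries. *IFI27* was 2169 CPM (1989–2361) in the 41 barcodes and 971 (868–1083) in the other 29, so it was above every other epithelial group in both. *ISG15* was 159 and 30.0 CPM and *IFI6* 159 and 27.0 CPM in the same split, while *IRF7* was 40.7 and 39.0 CPM. NB jejunum barcodes without a tuft gene (558 of 565) held 3.46 CPM of *IFI27*, 2.86 of *MX1*, 10.1 of *IFI6* and 78.0 of *ISG15*, against 971, 53.9, 27.0 and 30.0 CPM in the AD barcodes without one. Among these barcodes *ISG15* was thus lower in AD, and the *IFI6* difference was smaller than over the whole class. The AD values rested on 10 UMIs of *ISG15* (14.4–55.1 CPM) and 9 of *IFI6* (12.3–51.2 CPM). The *IFI6* interval overlapped that of NB (7.82–12.8 CPM). Both AD values were below the low-gene level of AD jejunum (98.6 and 237 CPM). The split also set *IFI27* apart in NB abomasum, at 520 CPM in the 66 barcodes with a tuft gene and 30.4 in those without. There *ISG15* was 181 and 18.8 CPM and *IFI6* 342 and 132 CPM. In AD colon *IFI27* was 171 (124–231) and 123 CPM (104–145), and in AD cecum 25.4 (12.2–46.6) and 15.7 CPM (11.2–21.5), with overlapping intervals. In NB duodenum it had 0 UMIs in the 71 barcodes with a tuft gene and 1.31 CPM in the others. The neighbouring family members *ISG12(B)* and *IFI27L2* were also high in AD jejunum epithelium, at 592 and 123 CPM against 1.34 and 3.43 in NB jejunum. In cecum epithelium both were higher in AD (44.9 against 16.8 CPM and 49.4 against 15.2 CPM), opposite to *IFI27*. In NB rectum epithelium they held 5.94 and 20.7 CPM. Whether reads were split between these copies, and what part the tuft cells had in the NB and AD difference, was not tested.

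Among the wider interferon pathway, 80 of 90 listed symbols were in the matrices. Of the 6 listed interferons, *IFNB1* and *IFNW1* were not matched to a symbol, and *IFNE*, *IFNK* and *IFNL3* together gave no class more than 12 UMIs. Of *IFNG*, the type II interferon, 9702 UMIs fell in T cells, in all 12 libraries, and 92 in macrophages. T cell *IFNG* was 7.21 to 143 CPM in NB and 33.6 to 165 CPM in AD. In the colon it was 38.9 CPM in NB and 165 in AD, 4.25-fold higher in AD (3.52–5.17). In jejunum and cecum T cells the log2 ratio of *IFNG*, AD over NB (CPM + 5), was −0.11 and 0.73, both short of 2-fold.

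The antiviral effectors outside the 9 genes were counted in the same 11 comparisons. In jejunum epithelium 17 of 23 that entered were higher in AD (19.3% of all genes) and in colon epithelium 15 of 21 (17%), and 0 in NB in both (6.7% and 4.13%). In cecum epithelium 1 of 22 was higher in AD (7.9%) and 3 in NB (5%). In cecum macrophages 8 of 31 were higher in NB (8.53%) and 1 in AD (5.17%), and in colon macrophages 14 of 29 were higher in AD (12%) and 1 in NB (7.51%). Duodenum macrophages had 1 of 26 higher in AD (2.16%) and 1 in NB (5.54%), and jejunum macrophages 4 of 27 in AD (2.95%) and 0 in NB (5.78%). T cells had 9 of 30 higher in AD in jejunum (15.4%), 10 of 28 in colon (10.1%) and 0 of 30 in cecum (8.14%), with 1, 1 and 2 higher in NB (7.13%, 7.98% and 11.2%). Colon fibroblasts had 16 of 27 higher in AD (10.9%) and 1 in NB (6.68%). *OAS1Y*, another oligoadenylate synthase, was 145 CPM in NB and 18.8 in AD cecum epithelium, and 5.52 and 84.6 CPM in jejunum epithelium. *USP18*, which removes ISG15 from proteins and dampens type I signalling, was higher in NB cecum in epithelial cells (40.7 and 9.75 CPM), T cells (59.1 and 19.4 CPM) and macrophages (50.4 and 16.5 CPM).

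Of the genes of the type II response, the counts higher in AD differed between comparisons. In colon macrophages all 9 that entered were higher in AD (12% of all genes), with a median log2 ratio of 4.27 against 0.12 for all genes. *CXCL9*, a chemokine that draws activated T cells, was 3.15 CPM (5 UMIs) in NB and 4975 in AD colon macrophages, and 6.22 and 2641 CPM in jejunum. *CXCL10* was 8.81 and 822 CPM in colon and 15.7 and 743 in jejunum macrophages. *IDO1*, which breaks down tryptophan, had 0 UMIs in NB colon epithelium and 358 CPM in AD. In cecum macrophages *CXCL9* was 23.7 and 58.6 CPM, while *IDO1* had 52 UMIs in NB and 0 in AD. At least 2-fold higher levels in AD were found in 7 of 9 genes in jejunum macrophages (2.95% of all genes), 4 of 7 in duodenum (2.16%) and 4 of 8 in cecum (5.17%). In epithelial cells they were found in 5 of 8 genes in jejunum (19.3%), 5 of 5 in colon (17%) and 0 of 3 in cecum (7.9%). In T cells the counts were 4 of 6 in jejunum (15.4%), 1 of 4 in colon (10.1%) and 0 of 3 in cecum (8.14%), and in colon fibroblasts 5 of 7 (10.9%). In NB, 1 of the 8 genes was higher in cecum macrophages (*IDO1*, 8.53% of all genes), and 0 were in the other 10 comparisons (4.13 to 11.2%). The AD side of that *IDO1* difference was 0 of 546215 UMIs, with an upper limit of 6.75 CPM, so its size is uncertain.

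Over the 58 class and library groups, the genes outside the 9 whose log2(CPM + 5) followed the mean of the 9 most closely were *ZNFX1* and *OAS1Y* (Pearson's r = 0.83 each), *EIF2AK2* and *IRF9* (0.81 each), *DDX58* (0.80), ENSBTAG00000045588 (0.77), *IFI44L* (0.75), *RTP4* (0.73), *IFIH1* (0.71) and *USP18* (0.69). These were ranked among 10166 genes, and the groups share libraries and animals, so the values are descriptive. Of the 9 themselves, *MX1* (0.88), *IFI6* (0.86) and *ISG15* (0.83) followed the mean that contains them most closely, and *RSAD2*, *IRF7* (0.52 each) and *OAS2* (0.51) least.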

How the data were processed

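The deposited files were filtered 10x matrices of whole-number UMI counts per gene and barcode, made by the authors with Cell Ranger 3.1.0 (submitters' processing notes) on ARS-UCD1.2. From these, barcodes with 500–4000 genes, under 50000 UMIs and under 40% mitochondrial UMIs were kept, and doublets were removed per library by a nearest-neighbour score against simulated doublets (2 per barcode, 2000 variable genes, 30 components), 0.8% per 1000 barcodes. A class needed at least 1 UMI of its own anchor, none of another anchor, at least 1 supporting marker and, outside leukocytes, no *PTPRC*. UMIs were summed per class and library (at least 50 barcodes). Ratios carry exact conditional binomial intervals, levels exact Poisson intervals, and shares Clopper-Pearson intervals (95%). The filter was a mean of 5 CPM, the pseudocount 5 CPM and the limit 2-fold. The genes named were the 9 members, the pathway and marker lists, and the 10 genes most correlated with the members' mean. Members and lists were chosen with earlier results of these data known. Each tissue and stage was 1 library, and tissues were not taken as replicates of a stage, since all AD tissues came from 1 cow, so no test was run. Alternatives changed the class rule, doublet and quality filters, shared barcodes, depth, pseudocount, filter and scaling. Neighbouring genes were read from RefSeq (ARS-UCD2.0): *IFI27* lies beside *ISG12(B)* and *IFI27L2*, *MX1* beside *MX2*, *OAS2* beside *OAS1Y* and *IFI44* beside *IFI44L*, and values of these genes are uncertain where reads were shared. Scripts were tested on simulated data. Python 3.11.15, NumPy 2.4.6, SciPy 1.17.1, pandas 2.3.3, scikit-learn 1.9.0 and matplotlib 3.10.9 were used.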

Additional observations from a re-analysis of the deposited data

Results flagged for a closer look

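In 8 combinations of a gene and a class, AD was at least 2-fold higher in one tissue and NB in another, as log2 of the AD over NB ratio of (CPM + 5). With 1 library per tissue and stage, the difference between tissues was not tested. The share of all genes that changed side in this way is not given here. In epithelial cells *ISG15* was 1.83 in colon and −3.55 in cecum, *MX1* was 3.01 in jejunum and −2.01 in cecum, *IFI6* was 2.54 in jejunum and −4.00 in cecum, and *IFI27* was 7.31 in jejunum and −3.92 in cecum. In T cells *MX1* was 1.08 in colon and −1.93 in cecum, and *IFI27* was 1.32 in colon and −2.66 in cecum. In macrophages *MX2* was 1.25 in colon and −1.44 in cecum, and *IFI27* was 3.12 in colon and −1.05 in cecum. Several of these fell short of the limit with the anchor gene alone: in colon, epithelial *ISG15* (0.82), T cell *MX1* (0.85) and *IFI27* (0.75) and macrophage *MX2* (0.87). Macrophage *IFI27* in cecum fell short under other alternatives (−0.95 to −0.99). Epithelial *ISG15* was below the low-gene level in both NB cecum and AD colon. A higher side was also below it for epithelial *IFI6* in AD jejunum (82.8 against 237 CPM) and T cell *MX1* in AD colon (9.99 against 15.9 CPM). The same held for *IFI27* in NB cecum, in T cells (96.0 against 191 CPM) and macrophages (58.4 against 191 CPM). The higher sides of epithelial *MX1* and *IFI27* and of macrophage *MX2* were above it. The cecum was the tissue on the NB side in all 8, and all its values rest on the same NB and AD libraries. AD cecum was also dissociated with another kit than AD jejunum and colon. It had a lamina propria kit, while NB intestine had a propria kit after EDTA and trypsin. Tissue, library and dissociation therefore cannot be told apart.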

How the results depend on the processing

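No paired analysis was possible because each tissue and stage was 1 library, so the groups compared share no more than 1 replicate number, and tissues were not taken as replicates of a stage. No called pair turned its direction under any alternative that was run. With a mitochondrial limit of 10%, the epithelial pairs higher in AD went from 9 to 1, since AD jejunum kept 32 and AD colon 48 epithelial barcodes, under the 50 required, and both comparisons were lost. With the anchor gene alone, T cell pairs higher in AD went from 4 to 1 and those higher in NB from 5 to 8. With barcodes thinned to 1000 UMIs, T cell pairs went from 4 to 8 (AD) and from 5 to 8 (NB). All other counts stayed within 1.5 times. Of the 37 called pairs, 30 were still past 2-fold with the anchor gene alone, 34 when thinned, 29 of the 29 left with the mitochondrial limit, and 36 or 37 under each other alternative. Pairs not called before also passed 2-fold: 14 when thinned, 6 with the anchor gene alone, and 0 to 6 under each other alternative. The calls thus depended on depth. Centring on the median of all genes took *MX1* in colon T cells to 0.98. Thinning took *IFI44* in colon fibroblasts (1 NB UMI) to 0.00, and turned 3 pairs under the 2-fold limit: *IRF7* in jejunum T cells (−0.03 to 1.50), *ISG15* in colon macrophages (0.60 to −1.97) and *RSAD2* in colon fibroblasts (0.09 to −1.24). Leaving out genes above 1% of UMIs was chosen after the data were seen. *IFI27* in cecum macrophages fell short of the limit under 4 alternatives (−0.95 to −0.99). Depth limits values that rest on few UMIs, such as *OAS2* and fibroblast *IFI44* and *RSAD2*.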
